A study of Mus musculus with 2 samples.

Results

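B cells of mouse pancreatic tumours were chosen by their UMIs (unique molecular identifiers, each marking 1 captured RNA molecule) and numbered 867 of 24160 kept cells. A barcode was taken as a B cell with at least 4 UMIs of Cd79a, Ms4a1 and Cd79b together, at least 1 of them from Cd79a or Ms4a1, no UMI of Cd3e, Cd3d or Cd3g, under 0.1% of its UMIs from C1qa, C1qb and C1qc, under 0.4% from S100a8 and S100a9, and at most 2 UMIs of Krt8 and Krt18. Cd79a and Cd79b encode the signalling chains of the B cell receptor and Ms4a1 encodes CD20. The limits on the other genes keep out T cells, macrophages, granulocytes and tumour cells.

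The study placed KPC cells, a line from tumours of a genetically engineered mouse model of pancreatic cancer, in the pancreas of mice to ask how ZEB1 in tumour cells acts on the immune cells around them. KPC-shV cells carried the control vector and KPC-shZEB1 cells a hairpin against ZEB1, and 1 tumour of each group gave 1 single-cell library (10x Chromium 3ʹ v3.1 chemistry). Both tumours were dissociated at the same time. By the study's text both tumours came from mice given gemcitabine, a drug that the labels do not name. The study made orthotopic tumours in C57BL/6J, BABL/c and NSG mice a few weeks old. By its text these tumours came from immunocompetent mice, and their strain is not stated in the sources used here. The hairpin was in the injected cells, so the B cells came from the host and carried none. Values are given first for the library labelled KPC-shV and then for the library labelled KPC-shZEB1, and every ratio is the second over the first. Each group had a single library, so nothing was tested, and mouse, tumour, library and group cannot be told apart. Intervals in parentheses are exact 95% intervals for counting error only.

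Naive B cells carry IgM and IgD on their surface and recirculate through the follicles of lymphoid tissue. On contact with antigen and T cell help they enter an activated state and can switch their heavy chain to IgG, IgA or IgE, form germinal centres, or become antibody-secreting plasma cells. B cells also present antigen on MHC class II, and they respond to interferons.

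The libraries held 12594 and 13271 barcodes with 130941086 and 143461224 UMIs, and the B cells had a median of 3861 and 3534.5 UMIs. Zeb1, the target of the hairpin, was at 197 and 234 CPM (counts per 1e+06 UMIs of the cells summed) in keratin-bearing cells (at least 5 UMIs of Krt8 and Krt18 and no B cell or Cd3 UMI), for a ratio of 1.19 (1.14–1.24), so these cells held no less Zeb1 RNA under the knockdown label. The study checked the Zeb1 knockdown in KPC cells and stained tumour tissue for Zeb1, and neither was measured here. In the B cells Zeb1 was at 417 and 431 CPM (1.03, 0.92–1.16). The 2 libraries shared 46 barcodes, and 0 and 2 of the B cells had one of them.

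B cells made up a larger share of the library labelled KPC-shZEB1. They were 225 of 11713 kept cells (1.92%, 1.68–2.19) and 642 of 12447 (5.16%, 4.78–5.56), a ratio of 2.69 (2.30–3.14). Granulocytes were 5847 and 3811 cells, and without them B cells were 3.84% (3.36–4.36) and 7.43% (6.89–8.01) of the rest, a ratio of 1.94 (1.66–2.27). T cells, taken as cells with at least 2 Cd3 UMIs and no UMI of the rule genes under the same other limits, were 304 and 717. Of B and T cells together, B cells were 42.5% (38.3–46.9) and 47.2% (44.6–49.9), a ratio of 1.11 (0.95–1.30) whose interval spans 1. The shares of one library are tied to each other, so a smaller share of granulocytes raises that of every other cell.

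**Figure D1:**
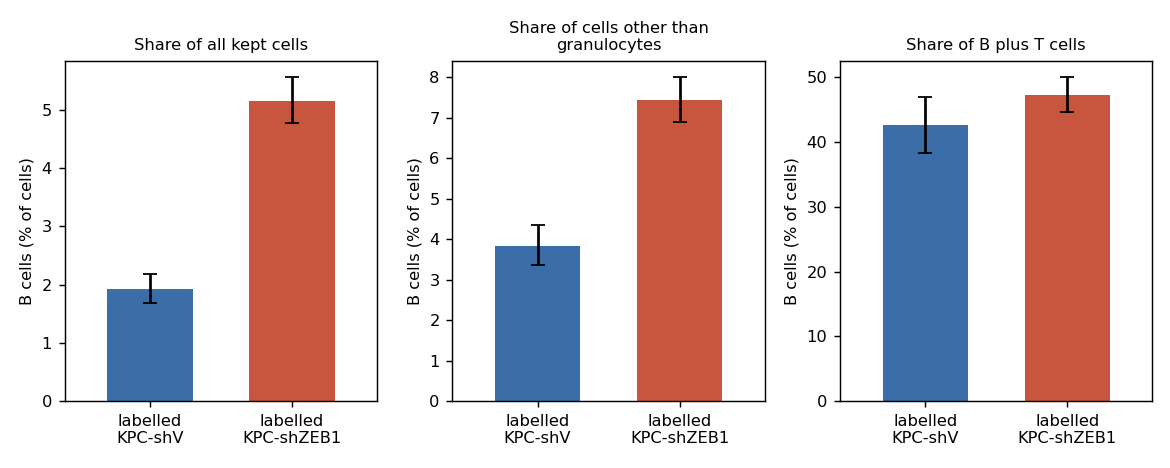
B cells as a percent of all kept cells, of cells other than granulocytes and of B plus T cells. Bars are 1 library each and error bars are exact 95% intervals for counting error. The gap of 1.92% against 5.16% becomes 42.5% against 47.2% when B plus T cells are the reference.

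The limits on other cells' genes removed more barcodes from the library labelled KPC-shZEB1. Of 298 and 1128 barcodes that met the Cd79a, Ms4a1 and Cd79b criteria, 73 (24.5%) and 486 (43.1%) were lost. The C1q limit alone took 7 and 192 and the keratin limit alone 29 and 125. The 192 barcodes lost to C1q alone held Bank1 in 99.0%, Pax5 in 86.5% and Ighm in 94.3%, and 10 of them (5.21%) had a Scrublet doublet score above 0.2. The 20 and 13 barcodes lost to the S100 limit alone were of another kind, since 19 and 13 of them had such a score. Without the C1q, S100 and keratin limits, a comparison added after the data were seen, B cells were 286 (2.44%) and 1019 (8.19%), a ratio of 3.35 (2.94–3.84). Just inside the limit, 27 and 104 cells had exactly 4 UMIs of the 3 genes, with Pax5 in 81.5% and 91.3%. Just outside it, 23 and 77 barcodes with exactly 3 UMIs met the other criteria, with Pax5 in 95.7% and 85.7% and Bank1 in all of them.

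Genes that the rule did not use were those of B cells. Bank1, an adaptor of B cell receptor signalling, had a UMI in 100.0% and 99.4% of the B cells, against 4.0% and 10.8% of granulocytes. Pax5, the transcription factor that holds B lineage identity, was found in 89.8% and 89.9% against 0.6% and 2.3%, and Ighm, the constant region of IgM, in 97.8% and 93.9% against 3.3% and 9.2%. Granulocytes had a median of 3260 and 2958 UMIs, somewhat fewer than the B cells. They were chosen to hold no Cd79a, Ms4a1 or Cd79b UMI, which can lower their share with other B cell genes.

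Most B cells were of the unswitched type. By heavy-chain constant regions, 214 of 225 (95.1%, 91.4–97.5) and 594 of 642 (92.5%, 90.2–94.4) had at least 2 UMIs of Ighm and Ighd and more of them than of switched isotypes. Ighd, the constant region of IgD, was found in 160 of those 214 cells (74.8%, 68.4–80.4) and 475 of those 594 (80.0%, 76.5–83.1). With each cell thinned to 1000 UMIs, these shares were 49.5% (39.7–59.4) of 107 cells and 64.5% (58.5–70.1) of 273. An Ighd UMI was in 0.3% and 1.9% of granulocytes, far below these shares. The granulocyte rule left out barcodes with a Cd79a, Ms4a1 or Cd79b UMI, so it can understate free B cell RNA. Cells called switched (at least 2 switched UMIs and more of them than of Ighm and Ighd) were 3 of 225 (1.33%, 0.276–3.85) and 0 of 642, which allows up to 0.573% of cells with such a call. This limits the call and not the share of switched cells, since 8 of 225 (3.56%, 1.55–6.89) and 48 of 642 (7.48%, 5.56–9.79) met neither call, and thinning to 1000 UMIs left 0 switched calls in either library. In the library labelled KPC-shV, 8 B cells had 18 switched UMIs, of which 7 were Ighg2b and 6 Ighg2c, with at most 4 in 1 cell. In the library labelled KPC-shZEB1, 26 B cells had 1 switched UMI each, and 17 of these UMIs were Ighg1. Ighg1 was at 6.92 CPM in these B cells, at 5.44 CPM in T cells and at 7.01 CPM in granulocytes of that library.

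Few B cells met the calls for germinal-centre, cycling or plasma type. Single genes of the plasma cell list were more common, and that list summed to 468 and 433 CPM in B cells. S1pr2, a germinal centre homing receptor, had 1 and 8 UMIs. Cells with at least 2 genes of the germinal centre list were 4.89% (2.47–8.58) and 4.05% (2.66–5.88), and granulocytes 19.8% and 17.4%. The list summed to 188 and 169.7 CPM in B cells and 431 and 406 CPM in granulocytes, so granulocytes were no measure of background for it and no germinal-centre share was read. Cells with at least 3 UMIs of the cycling list were 6 (2.67%) and 22 (3.43%), against 2.69% and 5.25% of granulocytes. No B cell was of plasma type (Jchain with at least 10% of UMIs from immunoglobulin constant regions), which allows shares of up to 1.63% and 0.573%. Jchain, the joining chain of secreted IgM and IgA, had 3 UMIs in each library. Outside the rule, 2 barcodes of the library labelled KPC-shZEB1 were of plasma type, with 3321 Ighm, 2611 Ighg1, 8762 Iglc1, 4864 Igkc and 742 Jchain UMIs between them, and the library labelled KPC-shV had none.

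Among 3562 genes with a mean of at least 50 CPM in the summed B cells, 106 (2.98%) were at least 1.5-fold higher and 53 (1.49%) at least 1.5-fold lower in the library labelled KPC-shZEB1, and the median log2 ratio was -0.00 with 1 CPM added. These shares are the background for the gene lists, which hold genes with at least 30 UMIs over both libraries, a lower floor.

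IgM and IgD went different ways. Ighm had 1396 and 2402 UMIs, or 1473 and 977 CPM (0.66, 0.62–0.71), while Ighd was at 381 and 467 CPM (1.23, 1.09–1.38). Both lie on chromosome 12 of GRCm38 on the minus strand, Ighm from 113418558 to 113422730 and Ighd from 113406604 to 113416324. The kappa light chain Igkc was at 2489 and 2581 CPM (1.04, 0.99–1.09), and the lambda chains were lower, with Iglc2 at 223 and 148 CPM (0.66, 0.56–0.79) and Iglc3 at 211 and 119 CPM (0.56, 0.47–0.68). Iglc2 and Iglc3 are near-identical copies, so how reads were divided between them is uncertain. Cells with more lambda than kappa UMIs were 16 of 220 (7.27%, 4.21–11.5) and 34 of 622 (5.47%, 3.81–7.56), with intervals that overlap. The median cell had 5 and 3 UMIs of Ighm and 9 UMIs of Igkc in each library.

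Of 16 genes of the B cell identity list, 8 were higher and 8 lower, 1 of them (Ighm) by at least 1.5-fold, with a median log2 ratio of 0.01. Bank1 spans 136053363–136326066 on chromosome 3 (minus strand), and its level was 4804 and 3355 CPM (0.70, 0.67–0.72) with a median of 19 and 12 UMIs per cell. Ebf1, a transcription factor of early B lineage commitment, was at 4592 and 4769.7 CPM (1.04, 1.00–1.08) and a median of 17 and 16 UMIs per cell. The receptor linker Blnk had a ratio of 0.99 (0.89–1.11), the inhibitory coreceptor Cd22 one of 1.03 (0.84–1.28) and Pax5 one of 0.85 (0.78–0.93). Vpreb3, which acts in receptor assembly and marks immature B cells, lies at 75943057–75949657 on chromosome 10 (plus strand) and measured 236 and 134 CPM (0.57, 0.48–0.68). Of 2 genes of the immature list with at least 30 UMIs, Vpreb3 was lower and the other higher, with a log2 ratio of 1.68. In granulocytes Bank1 was at 13.3 and 36.5 CPM, Ighm at 10.2 and 28.9 CPM and Vpreb3 at 0.543 and 1.62 CPM, each higher in the library labelled KPC-shZEB1, opposite to the B cells.

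The Ighm ratio turned with the cell rule, as did those of Iglc1 and Csf1. Without the C1q, S100 and keratin limits the Ighm log2 ratio was 0.29, and 1 barcode of 20245 UMIs then held 3319 of the 7199 Ighm UMIs of the library labelled KPC-shZEB1. With the 2 plasma-type barcodes left out of that set, Ighm was at 1184 and 790 CPM.

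**Figure D2:**
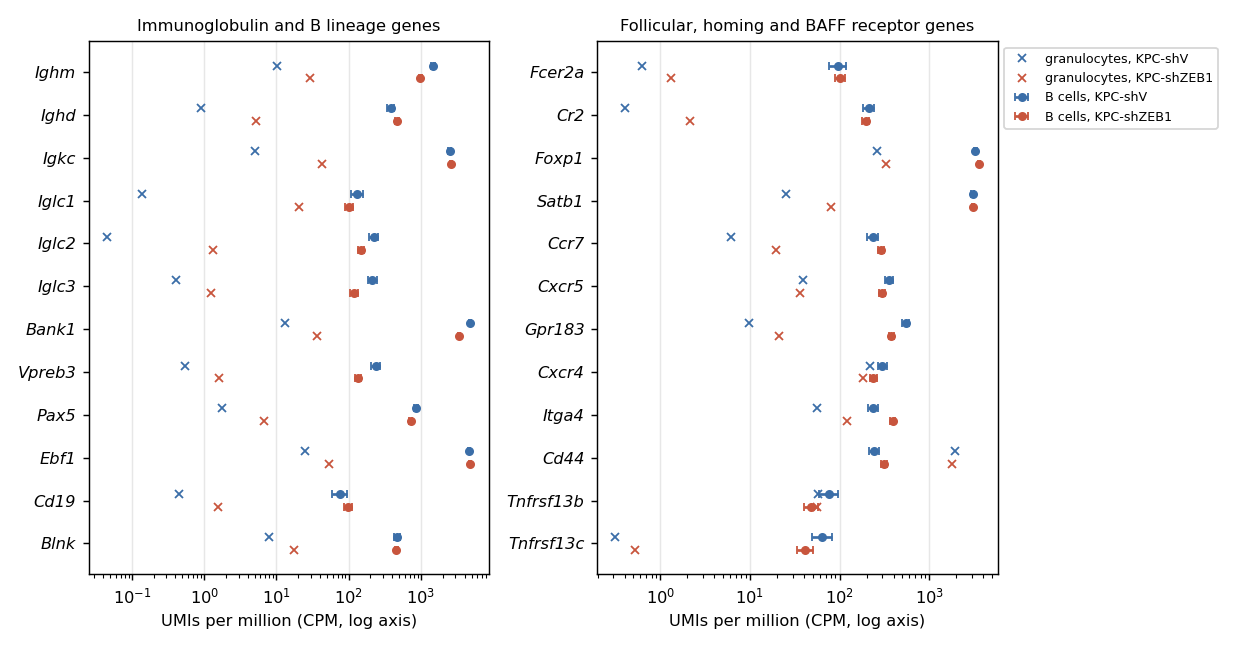
UMIs per 1e+06 UMIs of immunoglobulin and B lineage genes (left) and of follicular, homing and BAFF receptor genes (right), on a log axis. Filled points are summed B cells with exact 95% Poisson intervals and crosses are granulocytes of the same library. Ighm, Bank1, Vpreb3, Iglc2 and Iglc3 lie lower and Itga4 higher in the library labelled KPC-shZEB1, while Igkc, Ebf1, Satb1 and Blnk nearly coincide.

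Genes of naive follicular B cells lay on both sides by small folds. All 12 of the list passed 30 UMIs, 6 were higher and 6 lower, none by 1.5-fold, with a median log2 ratio of -0.01. Satb1, a chromatin organiser, was at 3054 and 3055 CPM (1.00, 0.96–1.04), and Fcer2a, the IgE receptor CD23 of follicular B cells, had 90 and 248 UMIs and a ratio of 1.06 (0.83–1.37). Foxp1, which holds naive B cells at rest, was at 3253 and 3562 CPM (1.10, 1.05–1.14), and Cd55, a complement regulator, at 370.4 and 290.1 CPM (0.78, 0.69–0.89). The complement receptor Cr2, high in marginal zone B cells, had a ratio of 0.92 (0.78–1.10), and 5 of 6 marginal zone genes were lower, none by 1.5-fold. All 6 genes of the memory list were lower, none by 1.5-fold, with a median log2 ratio of -0.09. Of 16 genes of receptor signalling 5 were higher and 11 lower, none by 1.5-fold. Syk, the kinase that starts the signal, had a ratio of 0.90 (0.83–0.97), and Malt1, which links it to NF-kB, one of 1.21 (1.11–1.32).

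Genes that govern where B cells go differed in both directions. Among 12 trafficking genes 6 were higher and 6 lower, 1 each by at least 1.5-fold. Itga4, the alpha chain of the integrins VLA-4 and alpha4beta7 that bind vessel walls, lies at 79255426–79333123 on chromosome 2 (plus strand) and measured 235 and 391 CPM (1.66, 1.43–1.93). It had a UMI in 46.7% and 60.9% of B cells, or 15.6% and 27.6% with each cell thinned to 1000 UMIs, and stood at 55.3 and 122 CPM in granulocytes and 517 and 468 CPM in T cells. Gpr183, the oxysterol receptor EBI2 that guides activated B cells within lymphoid tissue, lies at 121952551–121965195 on chromosome 14 (minus strand) and measured 544 and 378 CPM (0.69, 0.62–0.77). S1pr4, a receptor for sphingosine-1-phosphate, had 14 and 21 UMIs and a ratio of 0.58 (0.28–1.23) whose interval spans 1. The chemokine receptors Cxcr5, Cxcr4 and Ccr7 had ratios of 0.83 (0.73–0.95), 0.79 (0.69–0.92) and 1.24 (1.06–1.45). Cd44, a receptor for hyaluronan, was at 241 and 313 CPM (1.30, 1.12–1.51), below its granulocyte levels of 1915 and 1792 CPM. Over all other kept cells Cxcl13, the ligand of CXCR5, was at 9.58 and 7.83 CPM, and Tnfsf13b, the gene of the survival factor BAFF, at 8.7 and 10.6 CPM.

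Genes of the survival and costimulation receptor list were mostly lower. Of its 10 genes 9 were lower, 3 of them by at least 1.5-fold, with a median log2 ratio of -0.17. Without 32 B cells that carried neutrophil genes, described with the clusters, 8 of 10 were lower, with a median of -0.12. Tnfrsf13c, the BAFF receptor, had 61 and 101 UMIs and a ratio of 0.64 (0.46–0.89), with under 1 CPM in granulocytes of both libraries. Tnfrsf13b, the receptor TACI for BAFF and APRIL, had 72 and 118 UMIs and a ratio of 0.63 (0.47–0.86), with 57.2 and 55.7 CPM in granulocytes. Tlr7, a sensor of single-stranded RNA, had 24 and 30 UMIs and a ratio of 0.48 (0.27–0.86). Bcl2, the anti-apoptotic gene of resting lymphocytes, was at 321 and 317 CPM (0.99, 0.87–1.13), and Cd40, the receptor for T cell help, had a ratio of 0.97 (0.66–1.46).

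Interferon-response genes were mostly higher. Of 18 such genes 14 were higher, 8 of them at least 1.5-fold, and 4 were lower, 2 of them at least 1.5-fold, with a median log2 ratio of 0.50. Without 32 B cells that carried neutrophil genes, described with the clusters, 14 of 17 were higher, 9 of them at least 1.5-fold, and none was lower by 1.5-fold, with a median of 0.66. Irf1, a transcription factor that interferons induce, was at 85.5 and 155 CPM (1.81, 1.42–2.33).

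Guanylate-binding proteins and immunity-related GTPases, which act against microbes inside the cell and respond above all to interferon gamma, were among the higher genes. Iigp1 had 17 and 123 UMIs and a ratio of 2.79 (1.67–4.94), and Igtp 13 and 80 UMIs and 2.37 (1.31–4.65). Gbp7 was at 27.4 and 56.1 CPM (2.05, 1.34–3.24) and Gbp2 at 65.4 and 114 CPM (1.74, 1.32–2.33). Zbp1, a sensor of nucleic acids, was at 23.2 and 47.6 CPM (2.05, 1.29–3.40). Some other members of the list had ratios below 1 or an interval that spans 1. Oasl2 had 60 and 88 UMIs and a ratio of 0.57 (0.40–0.80), Rtp4 18 and 21 and 0.45 (0.23–0.90), Rsad2 26 and 51 and 0.76 (0.46–1.26), and the ubiquitin-like Isg15 35 and 113 and 1.24 (0.85–1.87). The Isg15 log2 ratio rested on few cells, since it was 0.31 over all B cells, 1.15 without the 5 cells with the most Isg15 UMIs and 1.15 (0.23–2.28) in B cells with at least 8 UMIs of the rule genes. That of Iigp1 was 1.43, and 2.49 without the C1q, S100 and keratin limits.

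Some of these genes were also higher in other cells of the library labelled KPC-shZEB1. Gbp2 had ratios of 1.98 (1.59–2.48) in T cells and 2.10 (2.04–2.17) in granulocytes, and Iigp1 had 1.96 (1.51–2.57) and 2.67 (2.38–2.99). Irf1 had ratios of 1.24 (1.08–1.44) and 1.67 (1.61–1.74), and Zbp1 had 0.87 (0.66–1.16) and 1.08 (1.00–1.16). The list had a median log2 ratio of 0.10 over 23 genes in T cells and 0.12 over 24 genes in granulocytes. These are not the same set as the 18 genes counted in B cells. The part of RNA from other cells in the B cell values was not tested. Whether B cells differ from those cells could not be tested with a single library each. Ifng, the gene of interferon gamma and no member of the list, was at 135 and 92.7 CPM in T cells and at 5.27 and 13.9 CPM over all kept cells other than B cells. It, Cxcl13 and Tnfsf13b were chosen after their values were seen.

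Promoter windows are shown for interferon-response genes that were higher together. Each holds 250 bases before and 50 after the annotated start, from RefSeq on GRCm38.p6. Of the 10 genes of the interferon and MHC class I lists that were at least 1.5-fold higher, 5 had a window. Capitals mark matches, on either strand, to the interferon-stimulated response element (GAAA, NN and GAAA in a row) or the gamma-activated site (TTC, NNN and GAA in a row).
Gbp2, chr3:142620413-142620712, plus strand: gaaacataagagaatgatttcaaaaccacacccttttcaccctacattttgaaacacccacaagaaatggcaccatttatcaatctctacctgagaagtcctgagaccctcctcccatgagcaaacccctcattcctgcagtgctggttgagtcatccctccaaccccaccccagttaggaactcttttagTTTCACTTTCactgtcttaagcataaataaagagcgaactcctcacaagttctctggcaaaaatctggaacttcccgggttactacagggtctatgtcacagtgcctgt
Igtp, chr11:58199306-58199605, plus strand: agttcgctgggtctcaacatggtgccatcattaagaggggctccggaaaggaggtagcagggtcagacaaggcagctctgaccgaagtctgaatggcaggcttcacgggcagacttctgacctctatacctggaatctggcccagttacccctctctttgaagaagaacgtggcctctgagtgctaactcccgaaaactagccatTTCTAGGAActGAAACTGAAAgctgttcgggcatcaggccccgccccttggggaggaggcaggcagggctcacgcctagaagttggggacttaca
Irf1, chr11:53769764-53770063, plus strand: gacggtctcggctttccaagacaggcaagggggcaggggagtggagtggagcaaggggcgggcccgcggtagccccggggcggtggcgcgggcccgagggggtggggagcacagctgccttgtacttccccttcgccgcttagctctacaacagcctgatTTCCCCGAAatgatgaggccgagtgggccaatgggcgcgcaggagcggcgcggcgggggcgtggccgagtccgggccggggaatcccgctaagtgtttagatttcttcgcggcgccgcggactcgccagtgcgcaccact
Gbp2 holds 1 response element, Irf1 1 gamma-activated site, and Igtp 1 of each. Either motif was in 4 of the 5 windows, in 9 of the 16 windows of the other members of both lists, and in 11.3% of all 32851 windows, where the response element was in 3.44% and the gamma-activated site in 8.30%. A match describes letters and not a bound site.

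All 11 genes of the MHC class I list were higher, 2 of them at least 1.5-fold, with a median log2 ratio of 0.33. Tapbp, which loads peptide onto class I, was at 82.3 and 145 CPM (1.76, 1.37–2.28), and Nlrc5, the transactivator of class I genes, at 67.5 and 109 CPM (1.62, 1.23–2.16). B2m, the light chain, was at 757 and 930.5 CPM (1.23, 1.13–1.34) and the heavy chain H2-K1 at 1247 and 1330.5 CPM (1.07, 1.00–1.14). The list had a median log2 ratio of 0.11 in T cells and 0.61 in granulocytes, where H2-K1 was at 936 and 1181 CPM. With the granulocyte level of each library subtracted from the B cells, the median was -0.82 over the members that stayed above that level. Granulocytes held the list at a summed 3202 and 4215 CPM, against 3335 and 3901 CPM in B cells. How much of the granulocyte level was free RNA was not tested.

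Of 10 genes of the MHC class II list 7 were higher and 2 of these, H2-DMa and H2-DMb1, at least 1.5-fold, with a median log2 ratio of 0.16. The invariant chain Cd74 was at 6063 and 7114 CPM (1.17, 1.14–1.21) and the beta chain H2-Ab1 at 1536 and 2184 CPM (1.42, 1.34–1.51). H2-DMa, part of the peptide exchanger, was at 146 and 226 CPM (1.55, 1.28–1.88). Ciita, the master regulator of class II, was at 157 and 148 CPM (0.94, 0.78–1.15), and H2-DMb2 had a ratio of 0.98 (0.85–1.12). Class II RNA was also in cells not known for it, with H2-Ab1 at 256 and 880.1 CPM in granulocytes and 73.1 and 280.2 CPM in T cells. With the granulocyte level subtracted, the log2 ratio in B cells was 0.03 for H2-Ab1 and -0.09 for Cd74.

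**Figure D3:**
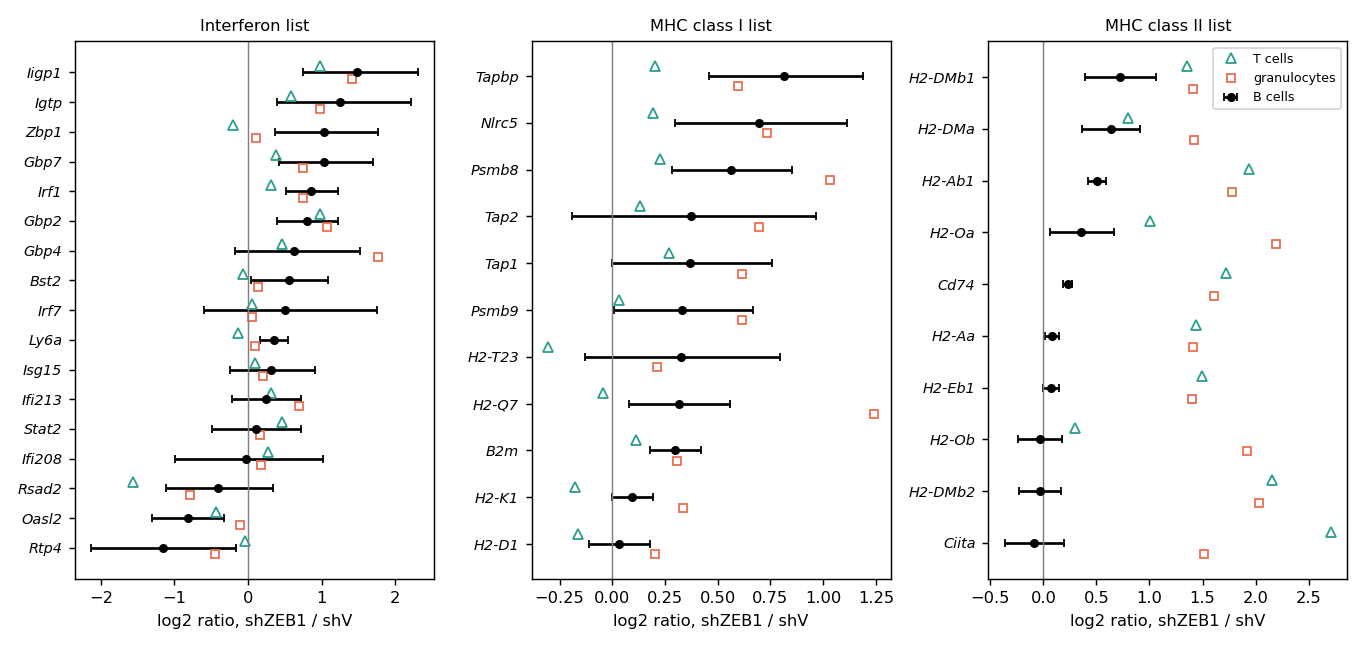
Log2 ratios, library labelled KPC-shZEB1 over KPC-shV, of the interferon, MHC class I and MHC class II lists (genes with at least 30 UMIs in B cells, 1 interferon gene not drawn). Filled points are B cells with 95% counting intervals, triangles T cells and squares granulocytes. Iigp1, Igtp, Zbp1 and Gbp7 lie above 1 in B cells, and all 10 class II genes lie further to the right in T cells and granulocytes than in B cells.

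Activation genes did not separate the libraries as a list. All 18 passed 30 UMIs, 6 were higher and 12 lower, 1 (Ccnd2) at least 1.5-fold higher and 2 (the chemokines Ccl3 and Ccl4) at least 1.5-fold lower, with a median log2 ratio of -0.15. At least 0.1% of UMIs came from the list in 224 of 225 and 639 of 642 B cells, and in 99.9% and 100.0% of granulocytes, so this limit set no state apart. At least 1% came from it in 45 and 95 B cells (14.8%, 12.1–17.8 for the second), with 27 and 84 cells between 0.8% and 1.2%, and in 86.3% and 79.5% of granulocytes, so no activation was read from that share either.

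Among its members, Cd83, a surface protein induced by receptor engagement, was at 1643 and 1355 CPM (0.82, 0.78–0.88) and the early activation marker Cd69 at 399 and 321 CPM (0.80, 0.71–0.91). Cd86, a costimulatory ligand for T cells, was at 969 and 1177 CPM (1.22, 1.13–1.31), and with the granulocyte level subtracted its log2 ratio was 0.05. Myc, which drives growth of activated B cells, was at 179 and 151 CPM (0.84, 0.70–1.02). Ccnd2, a cyclin of B cell cycle entry, had 49 and 201 UMIs and a ratio of 1.58 (1.15–2.21), with 77.2 and 125 CPM in granulocytes. Prdm1, the regulator of plasma cell fate and a gene of the plasma cell list, had 8 and 62 UMIs and a ratio of 2.99 (1.43–7.23), and its granulocyte levels of 74.5 and 116 CPM were above its 8.44 and 25.2 CPM in B cells.

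Clustering of the B cells of both libraries, without immunoglobulin, mitochondrial, ribosomal, list and rule genes, gave 9 clusters. Their genes are descriptions, since the clusters were made from these cells. An activated-like cluster of 98 cells was led by Mir155hg, Myc, Egr3, Irf4 and Egr2. In it Myc was at 606 against 93.5, Egr3 at 793 against 168, Irf4 at 468 against 98.9, Cd83 at 2741 against 1245 and Gpr183 at 1157 against 317 CPM in the other B cells. It held 25 B cells (11.1%, 7.32–16.0) and 73 (11.4%, 9.02–14.1), and none had a Scrublet score above 0.2.

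A cluster of 58 cells was led by Fcrl5, an Fc receptor-like protein of B cells, with Sox5, Il5ra and Gpr55. Fcrl5 was at 129.5 against 10.0, Il5ra, a chain of the interleukin-5 receptor, at 193 against 22.3, Ighm at 1759 against 1049 and Fcer2a at 31.6 against 106 CPM in the other B cells. It was left unnamed. It held 25 B cells (11.1%, 7.32–16.0) and 33 (5.14%, 3.56–7.14), and its leading gene Il5ra was itself at 70.7 and 25.6 CPM (0.36, 0.25–0.52) over all B cells. Within it Ighm measured 318 and 239 UMIs, for a ratio of 0.64 (0.54–0.76), and Gpr183 had a ratio of 0.30 (0.18–0.49).

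A cluster of 32 cells, 10 and 22, carried neutrophil genes, and 31 of them had a Scrublet score above 0.2. G0s2 was at 2466 against 156, Il1b at 6571 against 613, Ccl3 at 2671 against 211 and Bank1 at 1975 against 3878 CPM in the other B cells. The chemokines and some cytokines moved with these cells. Ccl3 was at 592 and 278 CPM (0.47, 0.42–0.53) over all B cells and had a ratio of 0.75 without the cluster. Ccl4 went from 0.56 to 0.99, Tnf from 0.74 to 1.16, Cd274, the gene of the checkpoint ligand PD-L1, from 0.81 to 1.03, Oasl2 from 0.57 to 0.99 and Csf1 from 1.94 to 1.36. Gbp2 went from 1.74 to 2.90.

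A cluster of 87 cells, 38 and 49, had Spp1 at 2348 against 531 and Fn1 at 877 against 236 CPM in the other B cells, with the collagen Col4a1 among its leading genes. These sums rested on some of its cells, since Spp1 had a UMI in 89.7% against 83.7% of the other B cells, Fn1 in 59.8% against 56.9% and Col4a1 in 10.3% against 15.5%. A further 87 cells, 3 and 84, had the acinar genes Try4 and Try5 among their 10 leading genes and were almost all from the library labelled KPC-shZEB1, so that cluster may be the library and not a type. The other 4 clusters were not described.

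Within clusters most of these differences kept their direction, though many of the counting intervals spanned 1. The 7 clusters with at least 10 cells of each library were compared, the one with neutrophil genes left out. The Irf1 ratio ran from 1.08 to 5.54, that of Itga4 from 1.49 to 1.79 and that of Ighd from 1.01 to 1.59. The Irf1 interval excluded 1 only at 5.54 (2.09–20.8), from 4 and 92 UMIs. That of Ighd excluded 1 only in the cluster led by Fcrl5, at 1.54 (1.04–2.32). The H2-Ab1 ratio was above 1 in 6 of the 7 and 0.96 (0.78–1.19) in the other. Intervals of Itga4, Ighm, Vpreb3 and Bank1 spanned 1 in at least 1 cluster each. The Ighm ratio ran from 0.59 to 0.77, that of Vpreb3 from 0.43 to 0.56 and that of Bank1 from 0.58 to 0.96, highest in the activated-like cluster. The Gpr183 ratio ran from 0.30 to 2.09 and was above 1 in 1 of the 7.

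**Figure D4:**
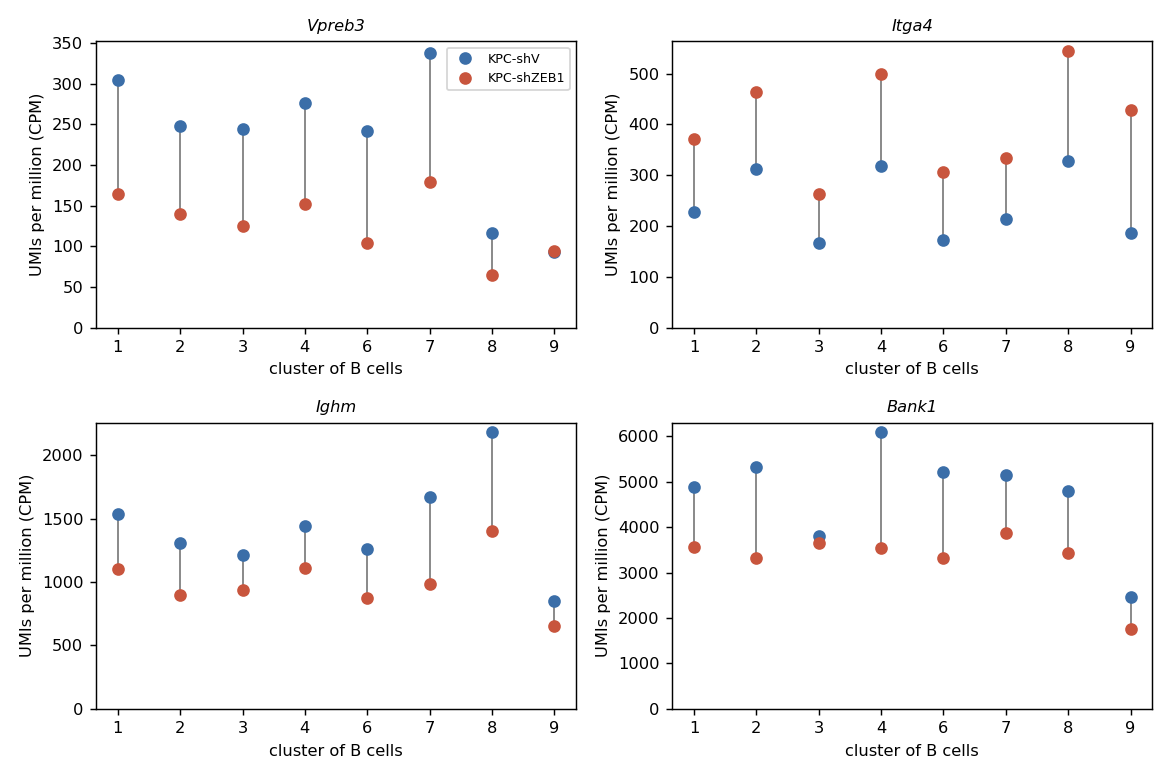
UMIs per 1e+06 UMIs of Vpreb3, Itga4, Ighm and Bank1 (vertical axes) over the B cells of each cluster with at least 10 cells of each library, 1 point per library. Itga4 lies higher and Ighm and Bank1 lower in the library labelled KPC-shZEB1 in all 8 clusters shown, and Vpreb3 is lower in all of them but cluster 9 (92.9 and 93.6 CPM). The gap of Bank1 is smallest in cluster 3, the activated-like cluster, and cluster 9 is the one with neutrophil genes.

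By size alone, the 10 highest ratios included genes of other cells. Try4, Prss2 and Ctrb1, digestive enzymes of acinar cells, were at 4.22 and 110.3, 11.6 and 124 and 22.2 and 195 CPM. Lyz2 was at 242 and 627 and Apoe at 560.3 and 1364 CPM, both high in macrophages, and the chemokine Ccl8 at 42.2 and 108 CPM. In granulocytes Try4 was at 4.25 and 117 CPM and Apoe at 686 and 1846 CPM. The 8 acinar markers summed to 48.5 and 530.1 CPM in B cells and 96.8 and 729.7 CPM in granulocytes. The 8 monocyte and macrophage markers summed to 881 and 2132 CPM in B cells and 1944 and 3759.6 CPM in granulocytes, and 7 of 7 with at least 30 UMIs were higher in B cells. The part of this RNA in the other differences was not tested. Gm47283, Slc8a1, AY036118 and Arhgap31 made up the rest, with ratios of 3.55, 3.20, 2.89 and 2.50 in B cells and of 2.54, 1.30, 3.17 and 1.22 in T cells.

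The 10 lowest ratios held Spp1 (0.42), Tnc (0.52) and Fn1 (0.56), leading genes of the cluster with Col4a1, and Ccl3, Cxcl3 (0.51) and G0s2 (0.56), which granulocytes held at 6683 and 3772, 2683 and 1184 and 7590.0 and 5633 CPM. Hspa1b, a heat shock gene, was at 109.7 and 55.3 CPM (0.50, 0.39–0.66) in B cells and had ratios of 0.34 in T cells and 0.65 in granulocytes, while 7 of the 13 dissociation and heat shock genes were higher and 6 lower. Gm15675 had a ratio of 0.42 (0.31–0.58), Prkd2, a kinase of lymphocyte receptor signalling, one of 0.51 (0.39–0.66) and Susd1 one of 0.53 (0.39–0.71). In T cells Prkd2 had a ratio of 0.97 and Susd1 one of 1.06. With Scrublet scores above 0.2 left out, Spp1, Tnc, Fn1, Ccl3, Cxcl3 and G0s2 were no longer among the 10 lowest, and Vpreb3, Iglc3, Selplg, Cpsf6, Sem1 and Pik3c2b took their places. Slc8a1, Ccl8 and Arhgap31 then left the 10 highest.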

How the data were processed

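Single-cell 10x Chromium libraries of 2 tumours, 1 each, were analysed. The authors made the deposited counts (whole UMI counts per gene and barcode) with Cell Ranger 7.0.1 on mm10, per the labels; whether intronic reads were counted is not given in the sources used here. The study's limits were applied to barcodes: a minimum of 500 genes, a total between 1000 and 60000 UMIs, and no more than 15% of UMIs from mitochondria. The study also took out inferred doublets with DoubletFinder, a step not repeated here. Doublets were scored with Scrublet in scanpy 1.11.5 and kept. Granulocytes had at least 1% of UMIs from the neutrophil list and no B cell or Cd3 UMI, a rule set after seeing the data. UMIs were summed over the cells of a class, and log2 ratios had 1 CPM added. With 1 library per group there was no test. Intervals were exact Poisson, Clopper-Pearson or conditional binomial, at 95%, from scipy 1.17.1. Cells were clustered by the Leiden method (igraph 0.11.9, resolution 0.8), without the list genes. Genes were named if on a fixed list with at least 30 UMIs, or among the 10 highest or 10 lowest ratios with a mean of at least 50 CPM, leaving out mitochondrial genes, immunoglobulin segments and rule genes; others are said to be chosen after their values were seen or lead a cluster. The members and lists were chosen with earlier results of these data known. The scripts were tested on simulated data, and 20 alternatives were run, 4 of them added after seeing the data. Some named items are not reported here, though they count in their lists.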

Additional observations from a re-analysis of the deposited data

How the results depend on the processing

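Counting error aside, 1 library per group limits every value. No paired analysis was possible because each group had 1 library. Of the summary values under the alternatives, 277 moved by less than counting error, 32 by more and 1 reversed, and of the gene values 1145, 82 and 18. With at least 8 UMIs of the rule genes the share ratios were 2.06, 1.49 and 0.948, activated cells 100 and 100%, germinal-centre-type cells 6.08% in the library labelled KPC-shZEB1, and 163 genes were higher and 101 lower by 1.5-fold. Cells thinned to 1000 UMIs gave 0% switched cells for KPC-shV, 83.1% and 83.3% activated, 0% and 0.156% cycling, 0.889% and 0% germinal-centre-type, and 49.5% and 64.5% IgD-bearing. With the granulocyte level subtracted, 45 genes were higher and 174 lower, and the medians were -0.0760 for MHC class II and -0.82 for MHC class I, which granulocytes held at a level close to that of B cells; genes at or below the granulocyte level, had no value. Without the 5 cells with the most UMIs the activation median was 0.0698. A floor of 20 CPM gave 385 and 151 genes, and one of 100 CPM 44 and 26. Without the C1q, S100 and keratin limits the share ratios were 3.35 and 2.42, cycling cells 6.67% and germinal-centre-type cells 6.97% in KPC-shZEB1, and 97 genes were lower. An activation limit of 1% gave 20% and 14.8%.

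These log2 ratios reversed in that sense. Without Scrublet scores above 0.2, Cd274 was 0.0346 and Tnf 0.19. With at least 8 UMIs, Iglc1 was 0.16 and H2-Aa -0.0399. With the granulocyte level subtracted, H2-Aa was -0.23 and Cd74 -0.0907. Without the 5 top cells, Iglc1 was 0.29, Nr4a3 0.0805, Ccl4 0.0270 and Tnf 0.38. Without the C1q, S100 and keratin limits, Ighm was 0.29, Iglc1 4.25 and Csf1 -0.30. Without the neutrophil-gene cluster, Cd274 was 0.0469 and Tnf 0.21. Without that and the Col4a1 cluster, Oasl2 was 0.0561, Ccl4 0.0217 and Tnf 0.0212. Apart from the setting's own construction, the cause was not tested. Over the alternatives that gave a value, Itga4 lay between 0.58 and 0.87, Bank1 between -0.54 and -0.47 and Vpreb3 between -0.88 and -0.73.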
